A study of Mus musculus with 24 samples.

Results

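The CXCR3 chemokine axis and its CXCR6 neighbour were followed here in mouse hearts with experimental autoimmune myocarditis (EAM), through 6 genes matched by symbol to their Ensembl identifiers among the 41388 genes of the count table. They are the interferon-gamma-inducible ligands Cxcl9, Cxcl10 and Cxcl11, their receptor Cxcr3, and the ligand and receptor pair Cxcl16 and Cxcr6. All 24 hearts were used, 4 EAM and 4 control hearts at each of 10, 15 and 21 days after the first immunization (D10, D15, D21). All mice were wild-type male BALB/cAnNCrl (Balb/c in the labels), 8 to 10 weeks old at the first immunization, and RNA was taken from a portion of each heart. EAM mice received a peptide of the cardiac alpha-myosin heavy chain (100 µg) in supplemented complete Freund's adjuvant, as 200 µl of emulsion on day 0 and again on day 7, and pertussis toxin on day 0. Control mice received the same adjuvant with PBS in place of the peptide, and also pertussis toxin, so adjuvant and toxin are shared by every group. The methods of the study state that RNA samples were chosen, as far as possible, so that inflammation was present, so the EAM hearts are not a random draw of immunized mice. At D10, however, the study reported no EAM mouse with raised leucocytes in the heart or raised cardiac troponin I.

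CXCL9, CXCL10 and CXCL11 are small secreted chemokines that many cell types, macrophages and endothelial cells among them, make in response to interferon-gamma. They bind CXCR3, a receptor carried by activated T helper type 1 cells, cytotoxic T cells and NK cells, which themselves release interferon-gamma, so the axis can feed itself. CXCL16 is made as a membrane-anchored protein that also takes up oxidized lipids, is cut from the cell surface by sheddases, and binds CXCR6 on activated and tissue-resident T cells and NKT cells.

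The CXCR3 ligands are neighbours on the minus strand of chromosome 5 in GRCm38 (GENCODE M21 annotation). Cxcl9 (ENSMUSG00000029417) lies at chr5:92321347-92328079, Cxcl10 (ENSMUSG00000034855) at chr5:92346638-92348889 and Cxcl11 (ENSMUSG00000060183) at chr5:92359544-92365485. Cxcl11 is annotated as a polymorphic pseudogene, because the reference strain carries a disrupted copy. Cxcr3 (ENSMUSG00000050232) lies on the minus strand at chrX:101731535-101734269, Cxcl16 (ENSMUSG00000018920) on the minus strand at chr11:70453983-70459984 and Cxcr6 (ENSMUSG00000048521) on the plus strand at chr9:123806475-123811760.

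The 250 bases before the RefSeq start of the ligand genes are shown because interferon-gamma and NF-kappaB act on such promoters, and because these genes moved together in the hearts. RefSeq promoters on GRCm38.p6 were matched for 4 of the 6 genes, Cxcl9, Cxcl10, Cxcr3 and Cxcr6. The letters searched on both strands were the interferon-gamma-activated site GAS (TTCNNNGAA), an ISRE-type core (GAAANNGAA), which IRF proteins bind, and the NF-kappaB consensus by its name. Capitals mark matched letters. The Cxcl9 window is chr5:92328080-92328329 and the Cxcl10 window chr5:92348890-92349139, both on the minus strand and written 5′ to 3′ towards the start.
Cxcl9: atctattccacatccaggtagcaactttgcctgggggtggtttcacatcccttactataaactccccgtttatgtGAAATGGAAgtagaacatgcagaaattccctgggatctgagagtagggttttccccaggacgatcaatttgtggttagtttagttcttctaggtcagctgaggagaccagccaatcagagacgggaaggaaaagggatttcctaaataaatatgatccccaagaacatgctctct
Cxcl10: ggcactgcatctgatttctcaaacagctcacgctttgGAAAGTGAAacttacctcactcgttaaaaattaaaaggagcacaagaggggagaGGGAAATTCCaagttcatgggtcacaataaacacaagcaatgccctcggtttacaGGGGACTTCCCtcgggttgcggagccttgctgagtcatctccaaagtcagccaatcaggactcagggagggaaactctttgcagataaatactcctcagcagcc
The ISRE-type core matched once in Cxcl9, from base 175 to base 167 before the start, and once in Cxcl10, from base 213 to base 205. The NF-kappaB consensus matched at 3 positions in Cxcl10, from base 159 to 150 and, overlapping each other, from base 104 to 95 and from base 103 to 94. No GAS letters were found in these windows, and none of the 3 motifs in those of Cxcr3 and Cxcr6, which says nothing about sites elsewhere. Among 32841 promoter windows of the same length, 7.02% held the GAS letters, 7.13% the ISRE-type core and 7.25% the NF-kappaB consensus.

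Total counts were between 15814863 and 24980864 per library, with a median of 19469782. Levels are given as CPM, reads scaled to a common library size by TMM. Genes are ranked against each other only as RPKM, which also divides by the summed exon length. Percents of marker transcripts are ratios of CPM, not corrected for length, and serve to compare hearts. EAM and control hearts were compared within a time point by the quasi-likelihood test of edgeR over all genes with enough reads, with Benjamini-Hochberg adjustment. A gene is called where the adjusted p is under 0.01 and the change is 2-fold or more. The summed CPM of 4 cardiomyocyte markers (Myh6, Tnni3, Tnnt2, Actc1), which check the label heart, was 4854 to 23200, and none of the 4 was at 0 in any library. The 4 EAM libraries of D21 carry another library code than the other 20, so at D21 the code and EAM cannot be told apart. The summed CPM of 3 atrial markers (Nppa, Myl7, Sln) was 52.1 to 176 in D21 EAM hearts and 1078 to 1678 in D21 control hearts. All 3 were called lower, as were 2 of 2 adipocyte markers, beside 1.3% of 15266 genes. These markers moved with EAM at D21, and their part in the D21 values below was not tested.

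In the 12 control hearts the CXCR3 axis was close to silent. Cxcl9 was 2.69 ± 0.66 CPM (SD, n = 12), Cxcl10 0.753 ± 0.418 CPM and Cxcl11 0.218 ± 0.153 CPM, and a control library held only 1 to 9 reads of Cxcl11. Cxcr3 was 0.287 ± 0.180 CPM, from 1 to 14 reads a library, and Cxcr6 0.687 ± 0.286 CPM. Cxcl16 was the exception at 21.7 ± 3.91 CPM. Per length, Cxcl16 had the highest level of the 6 genes in all 12 control hearts and Cxcl9 the next highest, and the Cxcl16 level was 5.96 to 13.0 times that of Cxcl9. None of the 6 genes was called between control hearts of D10 and D15 or of D10 and D21 in the edgeR quasi-likelihood fit of all 24 hearts, where 0.0797% and 0.27% of 16318 genes were. At an unadjusted p under 0.05 there were also 0 of 6 in each comparison, beside 1109 and 2029 of the 16318 genes.

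**Figure D1:**
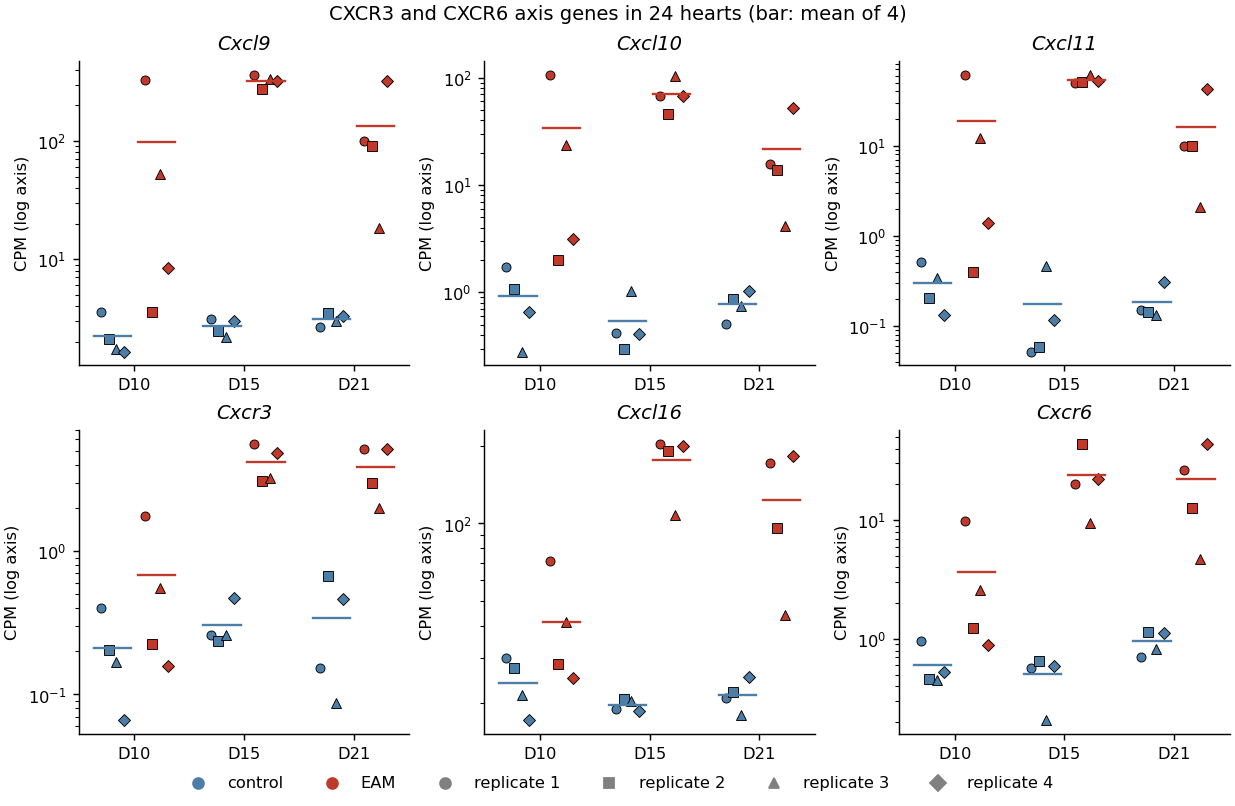
Level of each gene in CPM (log axis, a separate scale for each gene) in every heart, by time point. Blue symbols are control hearts, red symbols EAM hearts, the symbol gives the replicate number and the bar the mean of 4. Control levels stay flat across time points, D15 EAM hearts lie well above their controls for all 6 genes, and the D10 EAM hearts spread from near control level up to D15 level for the CXCR3 ligands, and up to 71.3 CPM for Cxcl16 and 1.77 CPM for Cxcr3, below every D15 EAM heart.

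At D10 the CXCR3 ligands differed widely among EAM hearts. Cxcl9 was 325, 3.57, 52.3 and 8.39 CPM in EAM replicates 1 to 4 and 3.54, 2.10, 1.74 and 1.65 CPM in the controls. EAM replicate 1 was thus at D15 level, replicate 3 was intermediate, and replicate 2 lay just above the highest control. Cxcl10 was 106, 1.98, 23.4 and 3.17 CPM in the EAM hearts against 0.281 to 1.71 CPM in controls. Cxcl11 was 60.9, 0.397, 12.1 and 1.37 CPM against 0.132 to 0.514 CPM. The 4 EAM hearts kept the same order for all 3 ligands, replicate 1, then 3, 4 and 2, and replicate 2 was within the control range for Cxcl11. All EAM hearts were above all controls for Cxcl9 and Cxcl10, 2 of the 6 genes, which held for 4.41% of the 15029 genes tested.

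The receptors and Cxcl16 stood less far above the controls in the same hearts. Cxcr3 was 1.77, 0.227, 0.557 and 0.158 CPM in the D10 EAM hearts and 0.0661 to 0.40 CPM in controls, so that replicates 2 and 4 were inside the control range. Cxcr6 was 9.90, 1.25, 2.56 and 0.897 CPM against 0.449 to 0.970 CPM, with replicate 4 inside that range. Cxcl16 was 71.3, 28.3, 41.2 and 24.9 CPM against 17.1 to 30.0 CPM, with replicates 2 and 4 overlapping the controls. The leucocyte marker Ptprc was 194, 27.7, 56.7 and 41.6 CPM against 23.9 to 38.6 CPM, and again replicate 1 was highest. That heart also had the lowest cardiomyocyte marker sum, 12140 CPM where the other D10 EAM hearts had 18905 to 22441 CPM. The atrial marker sum was 347 to 1191 CPM in D10 EAM hearts and 121 to 308 CPM in D10 controls, higher in EAM hearts without overlap where at D21 it was lower, and 0 of 3 atrial markers were called at D10. The part of these markers in the D10 values was not tested.

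Of the 4 genes with enough reads for the test at D10, 0 were called, where 0% of 15029 genes were called higher and 0% lower. The fitted log2 fold changes were 5.41 ± 1.41 (SE) for Cxcl9, 5.15 ± 1.38 for Cxcl10, 2.63 ± 0.87 for Cxcr6 and 0.78 ± 0.33 for Cxcl16, with adjusted p of 0.328, 0.328, 0.328 and 0.329 by edgeR. All 4 had an unadjusted p under 0.05, as did 2279 of 15029 genes. Cxcl11 and Cxcr3 were below the read filter, and in a fit with no filter they were at 5.97 ± 1.59 and 1.73 ± 0.84, both with an adjusted p above 0.01 (0.392 and 0.427). Without EAM replicate 1 the log2 fold change fell to 3.22 for Cxcl9, 3.31 for Cxcl10, 1.36 for Cxcr6 and 0.38 for Cxcl16. Other tools called Cxcl9 and Cxcl10 (edgeR likelihood ratio test, DESeq2) or Cxcl9 alone (edgeR exact test), and limma-voom called none. In that order, these tools called 0.313%, 0.346%, 0.279% and 0% of all genes.

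At D15 all 6 genes were higher in EAM hearts, and Cxcl9 and Cxcl11 were uniform across them. Cxcl9 was 362, 275, 332 and 324 CPM in EAM hearts and 3.13, 2.48, 2.18 and 3.0 CPM in controls. Cxcl11 was 50.0, 51.3, 60.2 and 52.4 CPM against 0.0521, 0.0590, 0.466 and 0.118 CPM. The highest D15 EAM heart exceeded the lowest by only 1.32 times for Cxcl9 and 1.20 times for Cxcl11, where at D10 the same ratios were 90.9 and 154. Cxcl10 was more variable, at 67.1, 45.6, 104 and 67.0 CPM against 0.417, 0.295, 1.04 and 0.412 CPM. The log2 fold change was 6.94 ± 0.15 for Cxcl9 (edgeR adjusted p = 6.8e-09), 7.03 ± 0.38 for Cxcl10 (4.36e-07) and 8.21 ± 0.32 for Cxcl11 (5.98e-08). The Cxcl11 value has few control reads behind it and moved between 7.91 and 9.40 when single hearts were left out.

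Cxcr3, the receptor, was 5.62, 3.08, 3.25 and 4.86 CPM in D15 EAM hearts and 0.260, 0.236, 0.259 and 0.471 CPM in controls. Cxcl16 was 205, 191, 108 and 200 CPM against 18.6 to 20.8 CPM, and EAM replicate 3 stood below the other three. Cxcr6 was 20.1, 44.0, 9.41 and 22.3 CPM against 0.207 to 0.649 CPM. EAM replicate 3 was the lowest heart for Cxcl16 and Cxcr6 and the highest for Cxcl10 and Cxcl11, and its Ptprc level, 243 CPM, was below the 256 to 305 CPM of the other hearts. The same heart was lowest for the summed T cell markers, at 63.3 CPM against 74.7 to 87.6 CPM, and for monocyte and macrophage markers, at 2933 against 3677 to 4244 CPM. Its fibroblast marker sum was 3124 against 5489 to 6438 CPM, and its cardiomyocyte marker sum 13298 against 4854 to 7907 CPM. The log2 fold changes were 3.80 ± 0.32 for Cxcr3 (edgeR adjusted p = 7.66e-06), 3.20 ± 0.20 for Cxcl16 (9.48e-07) and 5.61 ± 0.56 for Cxcr6 (1.85e-05). So 6 of 6 genes were called higher, beside 18.1% of 15693 genes, and 6 of 6 had no overlap between groups, beside 34.5%. All 6 stayed called in each of the 20 other settings and fits without 1 heart that were run. Markers of resident cells also moved with EAM at D15. The cardiomyocyte sum was 4854 to 13298 CPM in EAM hearts and 18166 to 21687 CPM in controls, with 2 of 4 markers called lower. The endothelial sum was 581 to 642 CPM against 856 to 1131 CPM, with 1 of 4 called lower, and the fibroblast sum 3124 to 6438 CPM against 1244 to 1448 CPM, with 1 of 4 called higher. Of all genes, 18.1% were called higher and 12.9% lower at D15. The part of the resident cell markers in the D15 values was not tested.

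At D21 the levels spread again, in the ligands more than in Cxcr3. Cxcl9 was 99.5, 91.3, 18.4 and 322 CPM in EAM hearts and 2.64 to 3.51 CPM in controls. Cxcl10 was 15.6, 13.7, 4.14 and 52.6 CPM against 0.508 to 1.02 CPM, and Cxcl11 was 9.81, 10.0, 2.07 and 42.2 CPM against 0.131 to 0.307 CPM. EAM replicate 4 was highest and replicate 3 lowest for each ligand, and even replicate 3 was above every control. Cxcr3 was 5.17, 3.0, 2.0 and 5.13 CPM against 0.153, 0.672, 0.0875 and 0.461 CPM, a 2.58-fold range over the EAM hearts where Cxcl9 had a 17.5-fold range. Cxcl16 was 172, 96.1, 43.8 and 184 CPM against 18.0 to 25.1 CPM. Cxcr6 was 26.6, 12.6, 4.74 and 44.1 CPM against 0.712 to 1.15 CPM, so that these also kept replicate 4 highest and replicate 3 lowest.

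The D21 log2 fold changes were 5.45 ± 0.82 for Cxcl9 (edgeR adjusted p = 0.00543), 4.81 ± 0.80 for Cxcl10 (0.00666), 6.46 ± 1.09 for Cxcl11 (0.00674), 3.51 ± 0.53 for Cxcr3 (0.0055), 2.56 ± 0.42 for Cxcl16 (0.00639) and 4.56 ± 0.70 for Cxcr6 (0.00562). All 6 were called higher, beside 4.3% of 15266 genes, and 6 of 6 had no overlap between groups, beside 17.8%. These calls were near the limit: 0 of 6 were called without any 1 of the 4 control hearts, without EAM replicate 1, without EAM replicate 2, or by limma-voom, while 6 were called without EAM replicate 3 or 4. Over the fits without 1 heart the adjusted p was at most 0.0284, and the lowest log2 fold change was 2.30, that of Cxcl16. In those fits without any 1 control heart 0.0643% to 0.327% of all genes were called in either direction. The share was 0.266% without EAM replicate 1, 0.705% without EAM replicate 2 and 1.41% by limma-voom. For the fits that called 6 it was 14.6% without EAM replicate 3 and 3.5% without EAM replicate 4. Without EAM replicate 4 the log2 fold change fell to 4.50 for Cxcl9, 3.85 for Cxcl10, 5.32 for Cxcl11 and 3.97 for Cxcr6. Fibroblast and endothelial marker sums also stood apart at D21, at 2231 to 5253 CPM in EAM hearts against 1321 to 1657 CPM and at 612 to 994 CPM against 1065 to 1255 CPM, while the cardiomyocyte sum overlapped.

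**Figure D2:**
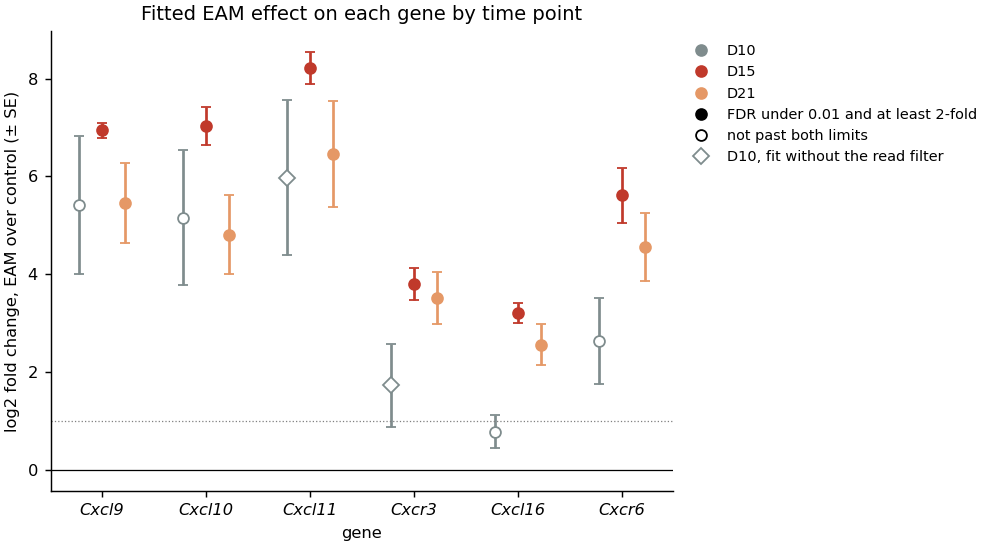
Fitted log2 fold change of EAM over control hearts for each gene at D10 (grey), D15 (red) and D21 (orange), with bars of 1 SE. Filled symbols are past an adjusted p of 0.01 and 2-fold (dotted line), open symbols are not, and diamonds are the D10 values of Cxcl11 and Cxcr3 from the fit without the read filter. The D15 values run from 3.20 for Cxcl16 to 8.21 for Cxcl11 with short error bars, and the D10 bars are the widest for 5 of the 6 genes.

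Whether the EAM effect itself changed between time points was tested in the fit of all 24 hearts. By the quasi-likelihood test, Cxcl16 alone of the 6 genes passed from D10 to D15, beside 5.3% of 16318 genes with a higher effect. Its effect was higher by 2.37 ± 0.50 on the log2 scale (edgeR adjusted p = 0.00208). The effect on the leucocyte marker Ptprc was also higher at D15, by 2.58 ± 0.65 (adjusted p = 0.00433), and its part in the Cxcl16 value was not tested. The difference was 1.48 ± 1.38 for Cxcl9 (adjusted p = 0.382), 1.84 ± 1.64 for Cxcl10 (0.362), 2.23 ± 2.48 for Cxcl11 (0.469), 2.04 ± 1.10 for Cxcr3 (0.130) and 2.94 ± 1.31 for Cxcr6 (0.0714). Without D10 EAM replicate 1, Cxcl9 at 3.72 and Cxcr6 at 4.25 were called as well, which made 3 of 6. The 5.3% above belongs to the fit of all 24 hearts. The share of all genes called without that heart is not given here, so the 3 of 6 cannot be set against it. From D15 to D21 none of the 6 was called, where 0.968% of genes had a lower effect, and also 0 of 6 had an unadjusted p under 0.05, beside 6689 of 16318 genes. The D15 to D21 differences were -1.50 ± 1.33 for Cxcl9, -2.23 ± 1.65 for Cxcl10, -1.75 ± 2.71 for Cxcl11, -0.27 ± 0.89 for Cxcr3, -0.64 ± 0.49 for Cxcl16 and -1.05 ± 1.17 for Cxcr6. DESeq2, the edgeR likelihood ratio test and limma-voom also called 0 of 6 here.

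Set against the D15 EAM mean of each gene, a comparison chosen after the values were seen, ligands and receptors lay apart within single hearts. In D10 EAM replicate 1, Cxcl9 stood at 100% of its D15 mean, Cxcl10 at 149% and Cxcl11 at 114%. In that heart Cxcr3 stood at 42.1%, Cxcl16 at 40.5%, Cxcr6 at 41.3% and Ptprc at 70.1%. The ligand genes there were as high as at D15 while receptor transcripts were below every D15 EAM heart for Cxcr3, and within their range for Cxcr6. At D21 the ligands were the lower set: in EAM replicate 1 they stood at 30.8% (Cxcl9), 21.9% (Cxcl10) and 18.3% (Cxcl11), with Cxcr3 at 123%, Cxcl16 at 97.5%, Cxcr6 at 111% and Ptprc at 54.0%. In replicate 2 the ligands were at 18.7% to 28.2%, Cxcr3 at 71.3%, Cxcl16 at 54.6%, Cxcr6 at 52.5% and Ptprc at 34.9%. Replicate 3 was the lowest heart for all 6 genes and Ptprc, with the ligands at 3.87% to 5.83%, Cxcr3 at 47.7%, Cxcl16 at 24.9%, Cxcr6 at 19.8% and Ptprc at 17.7%. In replicate 4 Cxcl9 was at 99.6%, Cxcl10 at 74.1%, Cxcl11 at 78.8%, Cxcr3 at 122%, Cxcl16 at 104%, Cxcr6 at 184% and Ptprc at 82.8%. These are values of single hearts with no test of the difference between genes.

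**Figure D3:**
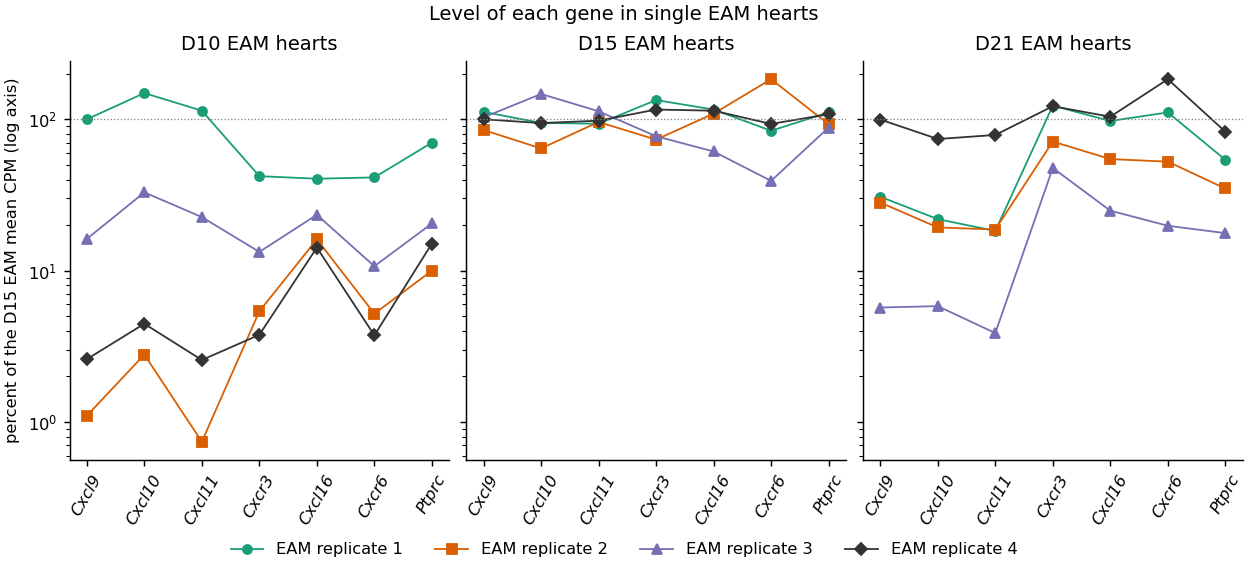
Level of each gene in single EAM hearts as a percent of the D15 EAM mean CPM of that gene (log axis), 1 line for each heart, with the leucocyte marker Ptprc at the right. In D10 EAM replicate 1 the ligands are at 100% to 149% and the other members near 41%, whereas in D21 EAM replicates 1 to 3 the ligands are at 3.87% to 30.8% and Cxcr3 at 47.7% to 123%.

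In whole tissue, more cells of a type and more RNA of a gene per cell cannot be told apart, so the levels were also set against leucocyte transcripts of the same heart, with no test. The summed CPM of 9 T cell markers, among them Cd3e, Cd4 and Cd8a, was 4.59 to 38.9 in D10 EAM hearts, 63.3 to 87.7 at D15 and 21.3 to 90.2 at D21, against 2.53 to 5.82 in the controls of all days. Of these markers 0 of 4 tested were called higher at D10, 9 of 9 at D15 and 8 of 8 at D21, beside 0%, 18.1% and 4.3% of all genes. No EAM library was at 0 for any of the 9. Cxcr3 as a percent of this sum was 3.45 to 4.71 at D10, 4.13 to 6.41 at D15 and 5.69 to 9.40 at D21 in EAM hearts. In control hearts it was 1.59 to 6.86 at D10, 6.78 to 18.6 at D15 and 2.60 to 17.7 at D21, on few reads. The ranges overlapped at D10 and D21, and at D15 every EAM heart was below every control. Relative to Ptprc, Cxcr3 at D15 was 1.20% to 1.84% in EAM hearts and 1.43% to 2.27% in controls, which overlapped. Cxcr6 relative to the same sum was 19.5% to 25.9% in D10 EAM hearts and 12.2% to 16.7% in D10 controls, without overlap, and overlapped at D15 (14.9% to 59.0% and 5.88% to 23.3%) and at D21 (22.3% to 48.9% and 19.4% to 30.4%). Relative to Ptprc, Cxcr6 was 2.16% to 5.11% in EAM hearts and 1.36% to 2.52% in controls at D10, and 3.86% to 17.2% and 1.16% to 3.93% at D15, both with overlap, and 9.70% to 19.3% and 2.67% to 6.25% at D21, without overlap.

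Cxcl9 was higher relative to Ptprc in EAM hearts. It was 107% to 136% of Ptprc at D15 against 12.2% to 18.6% in controls, 37.7% to 141% against 9.90% to 20.1% at D21, and 12.9% to 168% against 6.10% to 9.17% at D10, without overlap at any time point. Relative to the T cell marker sum Cxcl9 was 74.1% to 835% against 39.7% to 60.8% at D10 and 368% to 525% against 61.8% to 119% at D15, without overlap, but 86.5% to 357% against 69.2% to 92.4% at D21, with overlap. Cxcl10 relative to that sum also overlapped at D21, at 18.0% to 58.4% against 13.9% to 22.8%. Cxcl16 relative to Ptprc was lower in D15 EAM hearts than in their controls, 44.3% to 74.6% against 89.5% to 126%, and overlapped at D10 and D21. Relative to the sum of 7 monocyte and macrophage markers, such as Adgre1, Csf1r and Cd68, Cxcl16 was 2.67% to 5.51% over the EAM hearts of all days and 3.03% to 4.79% over the controls. The Cxcl16 to macrophage marker ratio thus overlapped between the groups. All 7 of these markers were called higher at D15 and 5 of 7 at D21, beside 18.1% and 4.3% of all genes.

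**Figure D4:**
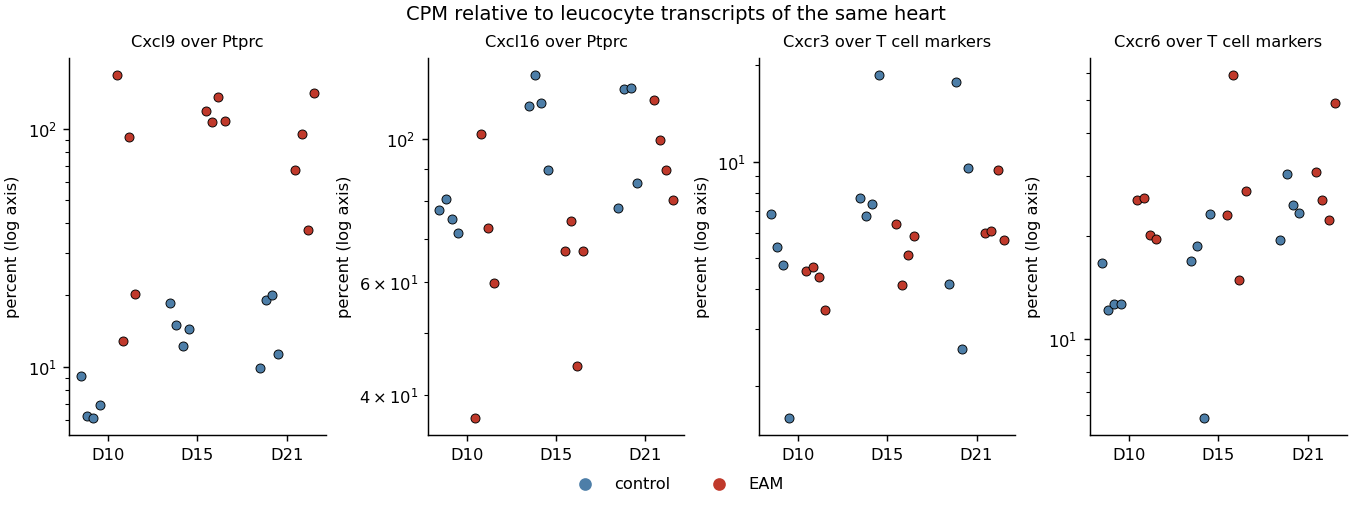
CPM of Cxcl9 and Cxcl16 as a percent of Ptprc, and of Cxcr3 and Cxcr6 as a percent of the summed CPM of 9 T cell markers, in each heart (log axes, blue control, red EAM). Cxcl9 relative to Ptprc is higher in EAM hearts at each time point (107% to 136% against 12.2% to 18.6% at D15), Cxcl16 relative to Ptprc is lower at D15, and Cxcr3 relative to T cell markers overlaps at D10 and D21 and is lower in EAM hearts at D15 (4.13% to 6.41% against 6.78% to 18.6%).

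Per length, the CXCR3 ligands kept the order Cxcl9, Cxcl10, Cxcl11 in all 24 hearts. The level of Cxcl9 was 91.0 to 120 RPKM in D15 EAM hearts, that of Cxcl10 20.3 to 46.3 RPKM and that of Cxcl11 13.2 to 15.9 RPKM, ranges that do not touch. The share of Cxcl11 in the summed RPKM of the 3 ligands was 8.09% to 10.8% in D15 EAM hearts. The Cxcl9 to Cxcl10 ratio of RPKM in EAM hearts was 1.34 to 2.29 at D10, 2.38 to 4.50 at D15 and 3.33 to 4.96 at D21. So among EAM hearts Cxcl10 was nearest to Cxcl9 at D10. In controls the same ratio was 1.46 to 4.63 at D10, 1.57 to 6.27 at D15 and 2.43 to 3.88 at D21. The D10 medians were 1.825 in EAM hearts and 1.705 in controls, so D10 controls had a similar ratio. Cxcl9 was the highest of the 6 genes per length in all D15 EAM hearts, in D10 EAM replicates 1 and 3 and in D21 EAM replicate 4. Cxcl16 was the highest in the other 5 EAM hearts, and the Cxcl16 to Cxcl9 ratio fell from 5.96 or more in controls to 0.324 to 0.695 at D15. Cxcr6 was above Cxcr3 in all 12 EAM hearts, by 2.12 to 12.8 times.

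Upstream of the ligands, interferon-gamma itself (Ifng) was nearly absent from controls, and ordered the EAM hearts as Cxcl9 did at D10 and D21 but not at D15. In EAM replicates 1 to 4 it had 128, 0, 12 and 2 reads at D10, 120, 68, 154 and 118 reads at D15, and 15, 13, 1 and 59 reads at D21. A control library had 0 to 2 reads. The summed EAM to control ratio per library read was 133 at D10 (95% interval 23.4 to 5276), 186 at D15 (51.1 to 1538) and 26.1 at D21 (9.84 to 97.9), intervals that cover counting error only. At D10 128 of the 142 EAM reads came from replicate 1, the heart with D15-like ligand levels, and without it the ratio was 18.1 (2.75 to 764). At D21 59 of the 88 EAM reads came from replicate 4, and without it the ratio was 11.4 (3.99 to 44.5). With so few control reads, leaving out a control heart with reads raised the ratio to 38.88 or 39.97 at D21 (replicate 2 or 4) and to 284.5 or 271.9 at D15 (replicate 2 or 3), and the single control read of D10 was in replicate 1. These ratios without 1 heart were added after the values were seen. At D15 Ifng was highest in replicate 3 and lowest in replicate 2, at 6.50 and 2.38 CPM, whereas Cxcl9 was highest in replicate 1 and Cxcl11 lowest there, and Cxcl10 kept the order of Ifng. Replicate 2 stood at 51.7% of the D15 EAM mean for Ifng and at 96.0% for Cxcl11. At D21 the hearts with the least Ifng, replicate 3, and the most, replicate 4, were those with the least and the most Cxcl9.

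Of a list of 28 interferon-gamma axis genes (cytokines, receptors, signalling and induced genes), 27 had an identifier in the count table. At D15, 22 of 26 tested were called higher and 0 lower, beside 18.1% and 12.9% of all genes, with a median log2 fold change of 3.07 where the median over all genes was 0.02. The largest were Ifng at 7.14 ± 0.55, the IL-12 receptor chain Il12rb1 at 5.44 ± 0.36, the signalling inhibitor Socs1 at 4.86 ± 0.24, the cytokine subunit Il27 at 4.79 ± 0.44 and the T helper type 1 regulator Tbx21 at 4.68 ± 0.32. The smallest were the receptor chain Ifngr2 at -0.73 ± 0.08, the kinase Jak1 at 0.39 ± 0.06 and the receptor chain Ifngr1 at 0.85 ± 0.10, which passed the adjusted p limit but not 2-fold. The ligand-binding and signalling chains of the interferon-gamma receptor thus changed in opposite directions, each by less than 2-fold. At D10, 0 of 19 tested were called, with a median of 1.77, 13 higher and 1 lower at an unadjusted p under 0.05, beside 2279 of 15029 genes in either direction. At D21, 5 of 22 were called, all higher (Ciita, Il12rb1, Il18r1, Irf8 and Stat4), beside 4.3% of all genes, with a median of 2.05. Without D21 EAM replicate 3, 17 of 25 tested were called there, as were 14.6% of all genes. Without EAM replicate 1 or 2, 0 of 22 were called, beside 0.266% and 0.705% of all genes. Without control replicate 2 or 3, 0 of 25 were called, beside 0.0643% and 0.11%. Without control replicate 1 or 4, 1 of 25 was called, beside 0.135% and 0.327%.

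**Figure D5:**
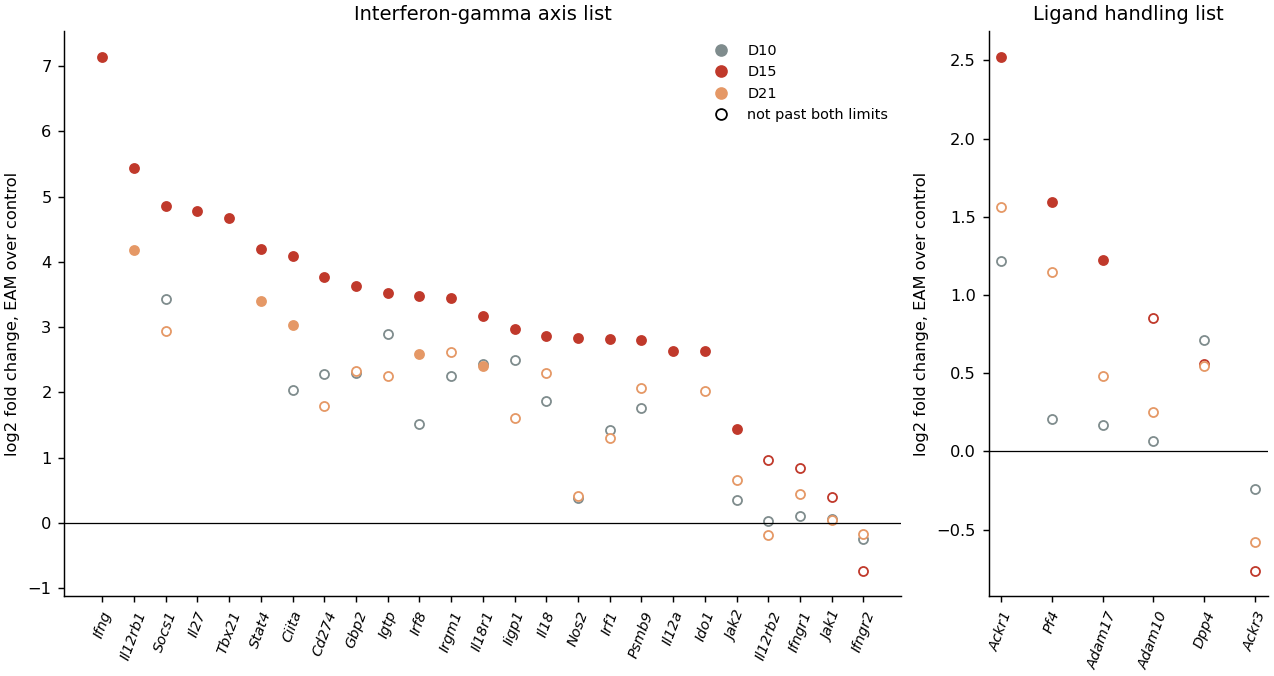
Fitted log2 fold change of EAM over control hearts for genes of the interferon-gamma axis list (left) and the genes that handle the ligands (right), each ordered by its D15 value, with D10 grey, D15 red and D21 orange and filled symbols for called genes. The D15 values run from 7.14 for Ifng down to -0.73 for Ifngr2, and the D10 symbols are all open. Genes below the read filter at a time point have no symbol there.

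Genes that process or scavenge these chemokines, listed together with the chemokine Pf4, had smaller fold changes, with a median of 1.04 at D15. The list holds the peptidase Dpp4, which trims CXCR3 ligands, the sheddases Adam10 and Adam17, which release CXCL16, the atypical receptors Ackr1 and Ackr3, and the platelet chemokine Pf4, another CXCR3 ligand. At D15, 3 of 6 were called, all higher, where 18.1% of all genes were called higher and 12.9% lower: Ackr1 at 2.52 ± 0.28, Pf4 at 1.59 ± 0.21 and Adam17 at 1.23 ± 0.10. Adam10 at 0.85 ± 0.08 and Ackr3 at -0.76 ± 0.14 passed the adjusted p limit without 2-fold, and Dpp4 was at 0.56 ± 0.24 (edgeR adjusted p = 0.0581). At D10 and D21, 0 of 6 were called, with medians of 0.19 and 0.52. At an unadjusted p under 0.05 there were 2 higher at D10, beside 2279 of 15029 genes in either direction, and 3 higher and 1 lower at D21, beside 7164 of 15266 genes.

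Over the 24 hearts, the genes most like each member were named by Pearson's r of log2(CPM + 1). The points share the split of EAM from control hearts and so give high r for many genes. Cxcl9 was closest to Cxcl11 (r = 0.989), Gbp2b, Gpr141, Slamf8 and Ltb. Cxcl10 was closest to Cxcl11 (r = 0.992), Acod1, Zbp1, Gbp2 and Ifi47, and Cxcl11 to Acod1 (r = 0.995), Cxcl10, Gbp2b, Gbp2 and Ifi209. Cxcr3 was closest to MHC class II genes, H2-Ab1 (r = 0.988), H2-Eb1, H2-Aa, H2-Ea-ps and their chaperone Cd74. Cxcl16 was closest to the lysosomal gene Npc2 (r = 0.992), Cst7, Glipr1, Ube2q1 and Cd300c2, and Cxcr6 to Serpinb1a (r = 0.986), Panx1, Podnl1, Cib1 and Spsb2.

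As deviations from the time point mean over the 12 EAM hearts, which removes the split between groups, the ligands correlated at 0.985 (Cxcl9 and Cxcl10), 0.995 (Cxcl9 and Cxcl11) and 0.988 (Cxcl10 and Cxcl11). Cxcl16 and Cxcr6 correlated at 0.941, Cxcr3 and Cxcl16 at 0.904, and Cxcr3 and Cxcr6 at 0.786. Between the CXCR3 ligands and the other 3 genes r was 0.718 to 0.841, with 0.804 to 0.841 between Cxcr3 and its ligands. On this measure Cxcr3 was closest to Rab43 (r = 0.979), the T cell adaptor Skap1, Sept1, Arl5c and Gpr174. The 12 hearts share the gradient of leucocyte transcripts.

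Some members overlap genes on the opposite strand, and although the library kit keeps strand, the sources used here do not state whether counting used it. Zmynd15 shares 552 exon bases with Cxcl16 and at D15 was 15.7 to 33.2 CPM in EAM hearts against 5.63 to 7.25 CPM in controls. Its log2 fold change there was 1.99 ± 0.23 (edgeR adjusted p = 4.51e-05), and D15 EAM replicate 3 was its lowest EAM heart, as for Cxcl16. Art3 shares 133 exon bases with Cxcl10 and was not called (-0.79 ± 0.31 at D15, adjusted p = 0.040). Gm2673 shares 1582 exon bases with Cxcl11 and had 0 reads in all 24 libraries. Fyco1 spans Cxcr6 with 0 shared exon bases and was called lower at D15 (-1.45 ± 0.27, adjusted p = 9.4e-04) and D21 (-1.05 ± 0.20, 0.00909), as were 12.9% and 1.3% of genes. If counting did not use strand, reads from the shared exon bases of Cxcl16 and Zmynd15, or of Cxcl10 and Art3, cannot be told apart.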

How the data were processed

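RNA from a portion of each of 24 BALB/cAnNCrl hearts was sequenced as 75 bp read pairs. The authors aligned reads to GRCm38 with HISAT2 2.0.4, removed duplicates with Picard and counted reads on Ensembl genes with featureCounts, and the raw counts are deposited unnormalized. The single tables and the joint table differed in 0 cells, and 92 spike-in features had 0 reads.

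The counts were fitted in R 4.3.3 with edgeR 4.0.16 (TMM, quasi-likelihood test, at least 10 reads in at least 4 samples). The SE of a log2 fold change is its size divided by the square root of the quasi-likelihood F statistic. Differences between time points came from a fit of all 24 hearts. limma 3.58.1 and DESeq2 1.42.0 served as alternatives, with other limits, scalings, controls and single hearts left out. Python 3.11.15 made tables and plots. Code was tested on simulated data. Replicate numbers were read from the labels, which do not say what they mark. Intervals use a confidence level of 95%, and cover counting error only.

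The members, gene lists and tests were chosen with earlier results of these data known. Genes named are the members, genes overlapping them, Ifng, the 5 largest called and 3 smallest axis genes at D15, the handling genes, Ptprc, and the 5 genes most like each member. Axis genes called at D21 were also named because they were 5. Uncalled genes whose change turned sign are named in the closing section. One axis gene, which enters the counts, is not reported here. P-values measure the spread between these hearts only.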

Additional observations from a re-analysis of the deposited data

Results flagged for a closer look

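In 36 groups of 4 hearts (6 genes, 6 groups), 1 heart stood apart from the other three by Dixon's 95% critical value in 7, where chance gives about 1 in 20. In EAM hearts these were D10 replicate 1 for Cxcl9, at 325 CPM where the next heart was at 52.3 CPM, and D15 replicate 3 for Cxcl16, at 108 CPM where the next was at 191 CPM. The other 5 were control hearts with few reads: Cxcl10 at 1.04 CPM in D15 replicate 3, Cxcl11 at 0.466 CPM in the same heart, Cxcl11 at 0.307 CPM in D21 replicate 4, Cxcr3 at 0.471 CPM in D15 replicate 4 and Cxcr6 at 0.970 CPM in D10 replicate 1.

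The EAM effect on Cxcl16 differed between D10 and D15 by 2.37 on the log2 scale (edgeR quasi-likelihood test in the fit of 24 hearts, adjusted p = 0.00208). It was called in each of 16 fits without 1 heart, with adjusted p from 1.7e-04 to 0.00576.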

How the results depend on the processing

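The 6 calls at D15 did not change under any alternative run. At D10, where 0 of 4 members were called, the edgeR likelihood ratio test and DESeq2 called 2 (all genes 0.313% and 0.346%), the edgeR exact test 1 (0.279%) and the use of all 12 control hearts 3 (4.43%), and no fit without 1 heart called any. At D21 limma-voom called 0 of 6, and fits without 1 heart called 0 to 6. For the effect from D10 to D15, the likelihood ratio test, DESeq2 and the replicate block each called 2, and fits without 1 heart 1 to 3. The shares of all genes called in these fits of the effect are not given here. The exact test was not run for differences between time points, which it does not handle. The cause of these changes was not tested.

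Of the interferon-gamma axis list at D10, 12 of 20 were called with all 12 control hearts, beside 4.43% of all genes. At D15 fits without 1 heart called 22 to 23. At D21 the list had 12 calls by the likelihood ratio test and by the exact test, 13 by DESeq2, 0 by limma-voom, 16 with all 12 control hearts, 13 at an adjusted p limit of 0.05, and 0 to 17 without 1 heart, where 11.6%, 11.4%, 11.4%, 1.41%, 12.4%, 12.4% and 0.0643% to 14.6% of all genes were called. Of the handling genes, 1 was called at D10 with all 12 control hearts, and 5 at D15 without the 2-fold limit, as were 64.5% of all genes. At D21 there were 2 by the likelihood ratio test, the exact test, DESeq2 or a limit of 0.05, 1 with all 12 control hearts, and 0 to 2 without 1 heart. The median log2 fold change of all genes at D15 was 0.17 with total counts in place of TMM.

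With Ptprc in place of the T cell markers, the EAM to control ratio of medians for Cxcr3 was 1.45, 0.985 and 3.06 at the 3 time points (0.877, 0.731 and 0.877 with T cell markers), and for Cxcr6 it was 2.38, 2.25 and 3.3 (1.79, 1.4 and 1.17).

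Some uncalled fold changes near 0 changed sign. Over fits without 1 heart, the control difference from D10 to D21 of Cxcl10 ran from -0.56 to 0.20, the one from D10 to D15 of Cxcr6 from -0.41 to 0.063, and the effect difference of Cxcr3 from D15 to D21 from -0.61 to 0.30. Of genes that are not members, at D10 Il12rb2 ran from -0.090 to 0.20, Nos2 from -0.21 to 0.56, Adam10 from -0.092 to 0.15, Adam17 from -0.019 to 0.25 and Art3 from -0.098 to 0.040, and at D21 Jak1 from -0.027 to 0.087 and Nos2 from -0.31 to 0.66. The Cxcr3 effect difference from D15 to D21 was 0.049 by limma-voom. With all 12 control hearts at D10, Dpp4 was -0.0095, Adam10 -0.0054 and Art3 0.21, and with total counts Art3 was 0.026.

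Whether the replicate numbers pair the hearts was not settled. Deviations of same-numbered EAM and control hearts correlated at -0.08 to 0.37 at D10, -0.10 to 0.04 at D15 and 0.097 to 0.30 at D21. At each time point at least 1 pair was under 0.1. In 2, 0 and 3 of the 4 pairs, the EAM and the control heart were each other's best match. The replicate block left the member counts at 0, 6 and 6 for D10, D15 and D21. It moved the log2 fold change of Cxcl9 from 5.41 to 4.16 and of Cxcl10 from 5.15 to 4.53 at D10, and of Cxcl9 from 5.45 to 4.85 at D21. Limma-voom gave 3.66 for Cxcl9, 3.9 for Cxcl10 and 2.03 for Cxcr6 at D10, and 4.79 for Cxcl9 and 5.70 for Cxcl11 at D21.

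Control libraries held few reads of Cxcl11 (1 to 9) and Cxcr3 (1 to 14), which limits the precision of their fold changes and of ratios in controls.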

Other observations

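Markers of NK cells, which also carry CXCR3 and CXCR6, were called higher in 6 of 6 at D15 and 5 of 5 tested at D21, beside 18.1% and 4.3% of all genes, and their summed CPM was 27.6 to 48.6 in D15 EAM hearts against 1.40 to 2.55 in controls. At D10 the sum was 2.44 to 20.5 in EAM hearts and 1.57 to 2.72 in controls. Neutrophil markers, whose cells are drawn mainly by other chemokines, were called higher in 4 of 4 at D15 and 1 of 4 at D21, against the same shares of all genes, and their sum in D10 controls, 115 to 213 CPM, was above that in D15 controls, 14.8 to 73.1 CPM. Of 3 B cell markers, 0 of 2 tested were called at D15, where 31.0% of all genes were called in either direction, and none had enough reads for the test at D21. No test of these lists against each other was made.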
